A study of Mus musculus with 23 samples.

Results

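Bone marrow-derived macrophages (BMDMs), which are macrophages grown in culture from bone marrow, were profiled by ATAC-seq with and without DLL4, a ligand of the Notch receptors. ATAC-seq cuts accessible DNA with a transposase and sequences the pieces, so that a peak marks an open stretch of chromatin. The comparison takes 4 of the 23 libraries of the series: 2 from cells labelled DLL4 24h and 2 from cells labelled no treatment, whose titles also carry 24 h. All 4 were chosen by their titles, come from the C57BL/6J strain and were labelled in vitro, 4-day cultured BMDMs. The labels give neither the dose and form of DLL4, nor whether the 24 h lay within the 4 days of culture, nor an age. Nor do they say whether the 2 libraries of a group came from separate animals or cultures, so p-values measure only the spread between these samples, which may be technical.

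The remaining libraries came from cells that were not cultured. Those used below are Ly6C-high blood monocytes of untreated C57BL/6J mice (2 libraries) and liver macrophages of Clec4f-cre/Rosa26iDTR mice. In these mice Cre driven by Clec4f, a gene of Kupffer cells, switches on the diphtheria toxin receptor, so that the toxin removes the Kupffer cells. They were taken 24 h (3 libraries) or 48 h (2 libraries) after diphtheria toxin, titled RLM, or after PBS, titled KC (2 libraries). The other 10 libraries, from Kupffer cells of mice with floxed Nr1h3 or Smad4, were not used here.

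Notch signalling runs from cell to cell. When DLL4 binds a Notch receptor, an ADAM protease and then gamma-secretase cut the receptor, and its freed intracellular domain enters the nucleus, where it joins the DNA-binding protein RBPJ and a MAML coactivator. Genes of the Hes and Hey families, which encode transcriptional repressors, and Nrarp, an inhibitor of the pathway, are classical direct targets. In the liver the endothelium of the sinusoids is known to present DLL4 to monocytes that replace lost Kupffer cells, the resident macrophages of that organ.

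Overlapping peaks of the 4 libraries were merged into 120842 regions of mouse build mm10, of which 72333 held a peak in every library. The value of a region in a library is the authors' normalised tag count, the number of sequence tags under the peak scaled to 10000000 tags per library, and is called the signal below. Total tags were 13760734 and 14618234 in the DLL4 libraries and 16278918 and 11417830 in the untreated ones, with 92822 to 97328 and 85563 to 104206 peaks. The share of tags in peaks was 54.74% and 54.44% with DLL4 and 54.08% and 48.33% without, lowest in untreated replicate 2. Across shared regions the log2 signals of replicates correlated at r = 0.966 (DLL4) and 0.964 (no treatment), against 0.948 to 0.952 between groups. These correlations are across regions, which are not independent replicates.

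DLL4 went with limited and mostly modest changes in accessibility. Of the 72333 shared regions, 1728 (2.39%) were more accessible with DLL4 and 1103 (1.52%) less, together 3.91%, by limma on centred log2(signal + 1) with Benjamini-Hochberg adjusted p under 0.05. The regions called were at 2057 genes, each region being assigned by distance alone to the closest protein-coding gene, up to 50 kb away. A change of at least 2-fold was seen at 478 of the regions that rose and 336 of those that fell. DLL4 and untreated values did not overlap in 46.4% of all shared regions, and with 2 libraries against 2 the smallest two-sided p of an exact permutation test is 0.333, so a call rests on the spread that limma shares between regions. Without that dependence of the spread on signal limma called 0 regions, with 9846 at an unadjusted p under 0.05. In bulk libraries fewer cells with a region open and a smaller opening per cell cannot be told apart.

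The balance of gains and losses depended on scale. Regions that rose made up 61.0% of the calls after centring, 75.1% without centring and 53.8% after quantile normalisation, which called 664 higher and 570 lower. The median log2 change moved with the signal, from -0.04 at regions with a mean signal under 20 to 0.14 at the 5257 regions at 200 or more, where 293 rose and 11 fell. After quantile normalisation the median at those strongest regions was 0.00. Leaving out 1 library gave 391 higher and 360 lower calls without DLL4 replicate 1, 550 and 562 without DLL4 replicate 2, and 945 and 315 without untreated replicate 2. Without untreated replicate 1 it gave 133 and 15.

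**Figure D1:**
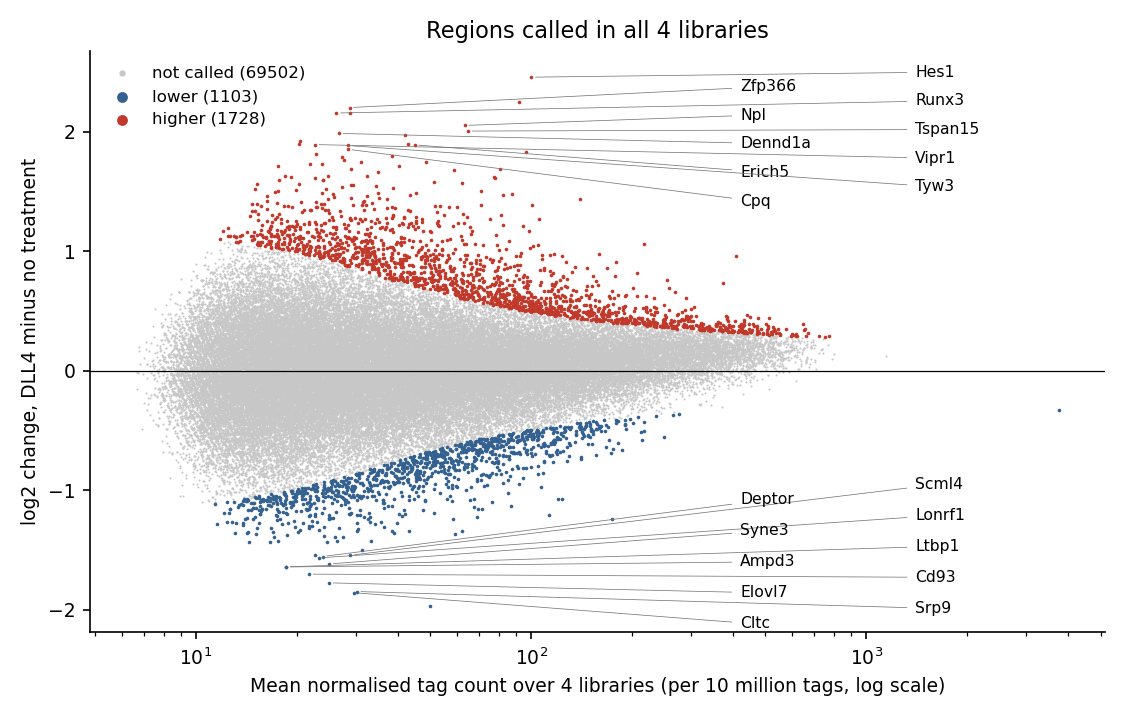
Log2 change in signal (DLL4 minus no treatment, vertical axis) against mean signal over the 4 libraries (normalised tag count per 10000000 tags, log axis), 1 point per shared region. The 1728 regions called higher are red, the 1103 called lower are blue and the 69502 not called are grey; the regions with the largest changes carry the name of the nearest gene, and the Hes1 region stands highest.

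The strongest response in the genome lay just outside Hes1, the repressor that is the best known Notch target. The region at chr16:30065079-30065296, 61 bp from the gene body, had a signal of 172.2 and 169 in the DLL4 libraries and 27.6 and 31.5 in the untreated ones. Its log2 change was 2.46 ± 0.18 (SE, 2 libraries against 2, limma adjusted p = 4.38e-27), rank 1 of the 72333 shared regions by size and by p. A second region 904 bp from the gene (chr16:30064027-30064453) had 166.4 and 139.6 with DLL4 and 25.8 and 35.9 without, a log2 change of 2.25 ± 0.18 (limma adjusted p = 2.03e-22), which ranked 2. In both, each DLL4 library was far above each untreated one.

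A further Hes1 region, 1470 bp from the gene, had 60.3 and 75.9 with DLL4 and 14.7 and 17.5 without, and rose by 1.98 ± 0.26 on the log2 scale (limma adjusted p = 1.10e-09). These 3 regions kept their calls when any 1 library was left out and after quantile normalisation. When peaks had to overlap by 50% to be merged, those of the second and of this region no longer joined across the 4 libraries, so that they were not tested. A region 41.6 kb away changed less (69 and 86.2 against 40.5 and 56.9, log2 change 0.64, limma adjusted p = 0.0375) and lost its call after quantile normalisation. Inside Hes1 itself lay a region that had a peak only in the untreated libraries, with 31.3 and 27.2. A peak had to hold 4-fold more tags than the surrounding 10 kb, where the 3 regions above had risen with DLL4. The missing peak therefore does not show a lower signal, and whether the signal fell there was not tested.

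**Figure D2:**
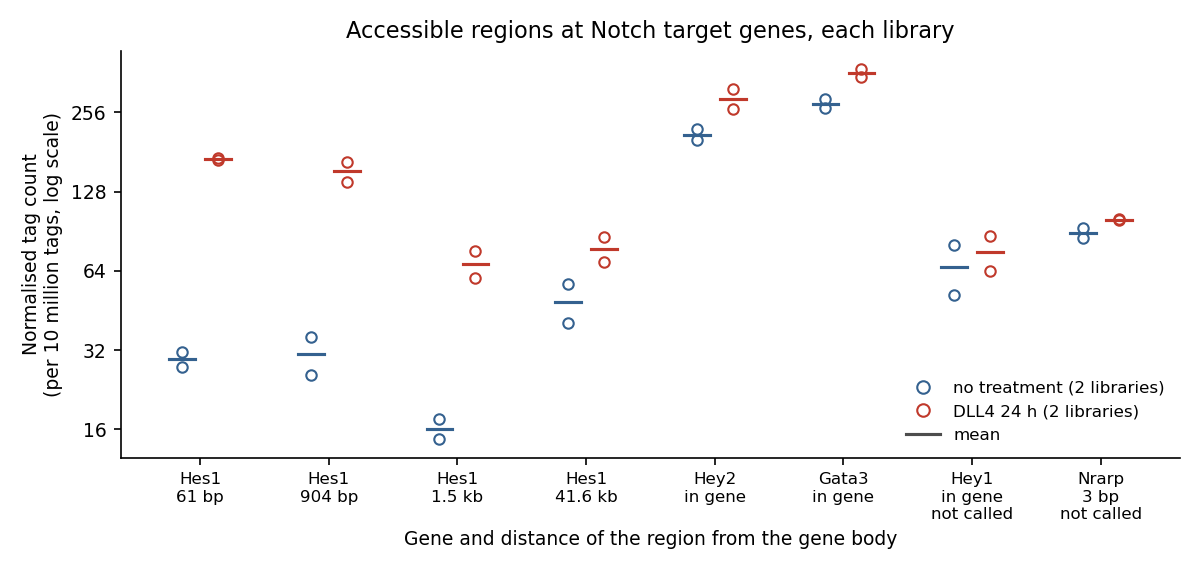
Signal (normalised tag count per 10000000 tags, log axis) of 8 regions at Notch target genes in each of the 2 untreated (blue) and 2 DLL4 (red) libraries, with the mean as a bar; the label gives the gene and the distance of the region from the gene body. The 3 regions nearest to Hes1 differ most, while the values at Hey1 overlap.

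Of the other direct targets, Hey2 and Gata3 had a region that passed the test. Of the 16 genes on the list, 14 had a region and 49 regions were shared, of which 6 rose (12.2%, against 2.39% of all shared regions) and 0 fell (against 1.52%), 4 of the 6 being at Hes1, and the median log2 change of the 49 was 0.17 against 0.03 over all shared regions. Hey2, another repressor of the family, had 263.1 and 313.3 with DLL4 and 220.5 and 200.6 without at its promoter (log2 change 0.41, limma adjusted p = 0.0205), a call lost after quantile normalisation and with the authors' peak score in place of the signal. Gata3, a transcription factor of T cells, rose by 0.35 on the log2 scale (347.4 and 372.8 against 286.3 and 264.5, limma adjusted p = 0.0385), also lost after quantile normalisation. The list had 3 calls higher without DLL4 replicate 1, without DLL4 replicate 2 or without untreated replicate 1, and 5 without untreated replicate 2.

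No region of Hey1 or Nrarp passed the test. Inside Hey1 the values overlapped, with 64 and 86.9 with DLL4 and 80.5 and 51.7 without, while 31.3 kb outside it they were apart, with 44.3 and 48.6 against 27 and 34.2 (log2 change 0.56, limma adjusted p = 0.189). The Nrarp promoter had 100.3 and 99.9 against 85.4 and 92.8 (0.13, limma adjusted p = 0.734), and a weak region 7.76 kb away had 18.2 and 14.4 against 7.99 and 7.01 (0.98, limma adjusted p = 0.0866). Elsewhere on the list, values that were apart but did not pass gave log2 changes of 0.88 at Myc, 0.73 at Il2ra, 0.71 and 0.67 at Efnb2 and -0.80 at Ccnd1. Peaks found in both DLL4 libraries and neither untreated one stood at Hes1, Hes7, Myc and Nrarp, 4 of the 89 regions at these genes against 2.14% of all regions. Peaks found only without treatment numbered 5, against 2.03% of all regions: 2 at Ccnd1, the cyclin D1 gene, 2 at Cdkn1a, a cell cycle inhibitor, and the 1 at Hes1. Hes5 and Ptcra had no region.

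The promoters of Hey2, of Spen and of Nrarp are shown because the first and second lie under regions that rose and the last under a peak that did not pass. The sequences are the 250 bases before the annotated start, from RefSeq on GRCm38.p6, the assembly called mm10, 5′ to 3′ on the gene's strand, in lower case with motif matches in capitals. The RefSeq table held 11 of the 16 direct targets.
Hey2: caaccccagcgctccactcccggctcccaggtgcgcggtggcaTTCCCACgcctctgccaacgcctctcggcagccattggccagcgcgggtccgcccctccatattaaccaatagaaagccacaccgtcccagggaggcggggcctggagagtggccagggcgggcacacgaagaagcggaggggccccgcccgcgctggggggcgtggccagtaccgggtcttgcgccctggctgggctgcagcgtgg
Spen: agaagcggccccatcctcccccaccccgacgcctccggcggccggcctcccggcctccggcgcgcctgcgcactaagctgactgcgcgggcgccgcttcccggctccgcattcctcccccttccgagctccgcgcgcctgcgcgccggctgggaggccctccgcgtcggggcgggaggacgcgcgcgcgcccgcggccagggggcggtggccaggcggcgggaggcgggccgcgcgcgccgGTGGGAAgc
Nrarp: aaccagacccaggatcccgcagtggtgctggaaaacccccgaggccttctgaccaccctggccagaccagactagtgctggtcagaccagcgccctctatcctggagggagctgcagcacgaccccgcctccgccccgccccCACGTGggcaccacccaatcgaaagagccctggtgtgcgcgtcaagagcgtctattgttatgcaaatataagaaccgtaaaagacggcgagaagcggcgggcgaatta
Hey2 lies on the minus strand (chr10:30842784-30843033) and holds the RBPJ core as TTCCCAC, starting 207 bases before the start. Spen, also on the minus strand (chr4:141538598-141538847), holds it as GTGGGAA 9 bases before the start. Nrarp, on the plus strand (chr2:25180508-25180757), holds no RBPJ core but the E-box CACGTG at 108 bases. A match is a description of the letters and not a binding site.

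Receptors, ligands and the rest of the pathway changed at few regions. None of the 47 shared regions at the 4 Notch receptor genes passed the test, against 3.91% of all shared regions (median log2 change -0.03). Of their 65 regions 2, at Notch2, had a peak only without treatment (against 2.03% of all regions), and these lay 153 and 46 bp from a peak of the DLL4 libraries. Among 16 shared regions at ligand genes 1 rose (6.25%, against 2.39%), 45.7 kb from Dlk1, a non-canonical ligand: it had 44.3 and 48.6 with DLL4 and 19 and 28.9 without (log2 change 0.92, limma adjusted p = 0.0206), and lost its call after quantile normalisation.

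At the genes of the nuclear complex, 127 shared regions gave 1 higher (0.79%, against 2.39% of all shared regions) and 4 lower (3.15%, against 1.52%). Maml2, a coactivator, had 1 of the losses, with 26.9 and 23.3 with DLL4 and 49.1 and 44.7 without (log2 change -0.91, limma adjusted p = 0.0182), a call not kept without any 1 of the 4 libraries. The gain was at the promoter of Spen, a corepressor gene, which had 383.7 and 311.3 against 252.5 and 251.4 (log2 change 0.42, limma adjusted p = 0.0119), and lost its call after quantile normalisation. No region of Rbpj passed.

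Proteases and modulators added 7 calls. Adam10, the protease that makes the ligand-dependent cut, and Psen2, a catalytic subunit of gamma-secretase, each had 1 region that fell, by 1.08 and 0.95 on the log2 scale, of 43 shared regions at protease genes (4.65%, against 1.52% of all shared regions); both calls were lost after quantile normalisation. At modulators 3 of 96 shared regions rose (3.13%, near the 2.39% of all shared regions), all inside Dtx4, a Deltex family ubiquitin ligase. The strongest of them had 33.4 and 43.1 with DLL4 and 17.2 and 9.63 without (log2 change 1.45 ± 0.30, limma adjusted p = 5.62e-04), and the others rose by 0.75 and 0.67. Numb, an inhibitor of Notch, and Neurl1a, a ligase of ligands, each had 1 region lower, by 0.82 and 1.05, neither kept after quantile normalisation. None of the 3 Dtx4 calls was kept without DLL4 replicate 2, and 1 without untreated replicate 1.

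Away from the pathway, the regions with the largest gains lay at genes of several kinds. Zfp366, a regulator known from dendritic cells, had 50.1 and 45.8 with DLL4 and 11.1 and 7.88 without inside the gene (chr13:99238764-99239021, log2 change 2.20 ± 0.30). Npl, the sialic acid lyase gene, had 111.2 and 94.4 against 29.5 and 18.4 (2.05 ± 0.21), and Tspan15, a tetraspanin that partners the protease ADAM10, had 122.1 and 87.6 against 29.5 and 20.1 (2.01 ± 0.21). In all of these the groups were well apart. Runx3, Dennd1a, Vipr1, Erich5, Tyw3 and Cpq complete the 10 genes that the rule named, with log2 changes from 1.85 to 2.16; Vipr1 encodes a receptor for vasoactive intestinal peptide, Dennd1a an activator of a Rab GTPase and Tyw3 a tRNA modification enzyme.

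The largest losses were smaller than the largest gains. Inside Cltc, the clathrin heavy chain gene, the signal was 18.2 and 8.21 with DLL4 and 48.5 and 43.8 without (chr11:86731541-86731795, log2 change -1.86 ± 0.29, limma adjusted p = 1.55e-06). A region 7.79 kb from Cd93, a surface receptor of myeloid and endothelial cells, had 8.72 and 10.9 against 39.3 and 28 (-1.70 ± 0.32). Srp9, Elovl7, Ampd3, Ltbp1, Syne3, Lonrf1, Deptor and Scml4 followed, from -1.85 to -1.55. All 10 of these losses, and the gain at Vipr1, lost their calls without untreated replicate 1, whereas 9 of the 10 gains kept theirs. The largest loss of all, -1.97, had no gene within 50 kb.

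Runx3, a transcription factor of T cells and other leukocytes, gained at 4 of its 11 shared regions, against 2.39% of all shared regions. The largest gain lay at an internal start of the gene (chr4:135152341-135152601): 42.9 and 44.5 with DLL4 against 7.99 and 9.63 without, a log2 change of 2.16 ± 0.31 (limma adjusted p = 5.75e-08). At the first start the values were 53.8 and 32.2 against 13.5 and 25.4 (1.09 ± 0.28, limma adjusted p = 0.00996), closer together and not called after quantile normalisation. The 2 others rose by 1.18 (40.2 kb outside the gene) and 0.99 (14.9 kb outside it). Without DLL4 replicate 1, and without untreated replicate 1, 2 of the 4 kept their calls. The 250 bases before both starts, both on the plus strand of chromosome 4, are given because a region that rose overlaps each.
Runx3 first start: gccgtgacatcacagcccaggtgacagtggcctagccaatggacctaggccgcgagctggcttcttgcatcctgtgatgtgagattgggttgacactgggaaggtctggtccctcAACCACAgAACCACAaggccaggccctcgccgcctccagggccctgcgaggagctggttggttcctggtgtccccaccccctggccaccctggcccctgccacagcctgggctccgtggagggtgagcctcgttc
Runx3 internal start: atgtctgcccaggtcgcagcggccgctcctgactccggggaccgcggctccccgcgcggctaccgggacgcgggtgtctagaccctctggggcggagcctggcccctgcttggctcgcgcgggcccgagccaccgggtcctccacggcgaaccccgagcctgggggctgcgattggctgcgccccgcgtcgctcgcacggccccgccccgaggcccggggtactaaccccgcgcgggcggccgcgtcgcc
The window before the first start (chr4:135120395-135120644) holds the RUNX motif TGTGGTT on the other strand, as AACCACA, 135 and 127 bases before the start. The window before the internal start (chr4:135152295-135152544) holds none of the 5 motifs searched.

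Itga9, the gene of the integrin alpha-9 subunit and a gene on the Kupffer identity list, had the most gains in the genome. Of 24 shared regions, 11 rose and 1 fell, against 2.39% and 1.52% of all shared regions. Of all its 42 regions, 4 had a peak only with DLL4, against 2.14% of all regions. The gains, 1 of them outside the gene body and the others spread along its 294 kb, ran from 0.71 to 1.73 on the log2 scale. At the start of the gene (chr9:118606546-118606759) the signal was 78.5 and 86.2 with DLL4 and 30.7 and 37.7 without (1.21 ± 0.21, limma adjusted p = 8.52e-06). Inside it, one of the stronger regions (chr9:118662596-118662818) had 139.5 and 145.7 against 62.7 and 70.9 (1.05, limma adjusted p = 2.87e-07), and the largest change, 1.73, went with low counts of 30.5 and 38.3 against 11.1 and 7.88. The number higher was 7 without DLL4 replicate 1, 8 without DLL4 replicate 2 and 8 without untreated replicate 2, but 4 without untreated replicate 1.

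**Figure D3:**
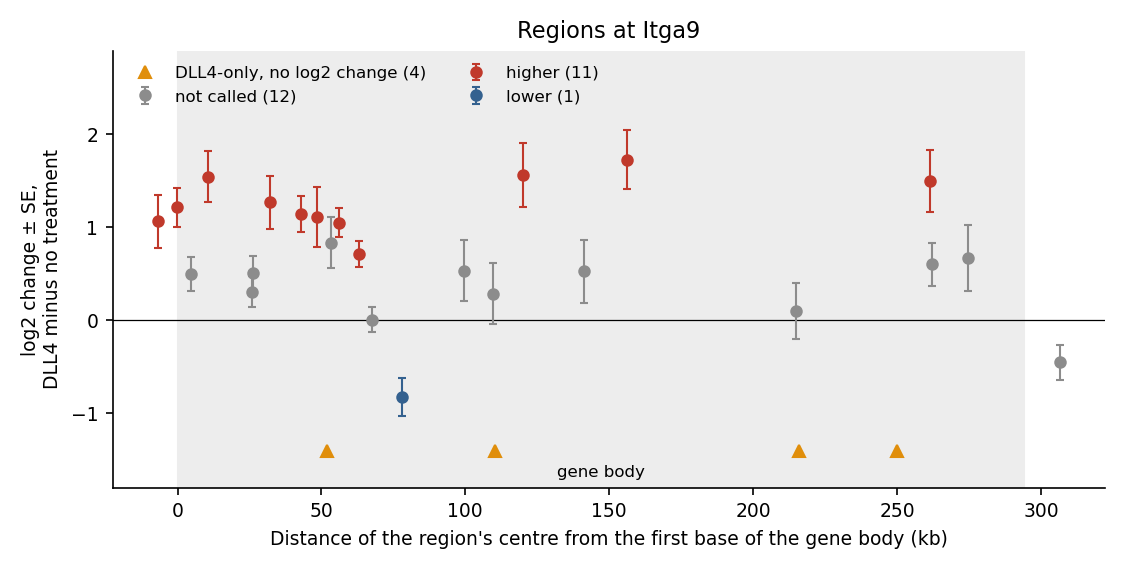
Log2 change (DLL4 minus no treatment, vertical axis, points with SE bars) of the 24 shared regions at Itga9 by distance of their centre from the first base of the gene body in kb; triangles mark the 4 regions with a peak only in the DLL4 libraries, at their position with no value. Of the 11 regions called higher (red) 1 lies before the gene body (shaded) and the others from its start to near its end, with 1 called lower (blue).

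Other genes also had several changed regions. In all, 334 genes had at least 2 called regions, 244 of them in 1 direction and 90 in both. Ano6, a lipid scramblase, had 6 of 27 shared regions higher (0.63 to 1.19), and Grk3, a G protein-coupled receptor kinase, 5 of 11 higher (0.53 to 1.48) and 3 more with a peak only with DLL4. Sema6d, a semaphorin, had 4 higher and 1 lower of 17, the strongest with 143.2 and 160.1 against 49.8 and 33.3 (log2 change 1.83 ± 0.17, limma adjusted p = 1.66e-17). Ralgapa2 had 4 higher of 16. Of all shared regions 2.39% rose and 1.52% fell, and 2.14% of all regions had a peak only with DLL4. Ano6 had 1 region higher after quantile normalisation and 0 without untreated replicate 1, and Grk3 had 4 and 2.

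By count, losses were most frequent at Runx1 (4 of 32 shared regions), Arhgap26 (4 of 36) and Foxp1 (4 of 57). Tiam1 (3 of 28) and S100a10 (3 of 9) followed, where 1.52% of all shared regions fell. The genes hold unlike numbers of regions, so the counts do not rank them by share. Runx1 is a transcription factor of blood development, Foxp1 a forkhead factor, and Arhgap26 and Tiam1 regulate small GTPases. Of 32 shared regions at Runx1, the 4 that fell did so by 0.69 to 0.91, and 1 rose by 0.84 (91.6 and 95.1 against 49.1 and 51.7). None of the 4 losses kept its call without untreated replicate 1, and 2 did without untreated replicate 2. At Foxp1, too, 1 region rose (0.86) beside the 4 that fell.

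Genes that mark Kupffer cells had a larger share of gains than shared regions as a whole. At 25 of 26 listed genes 159 shared regions were found: 20 rose (12.6%, against 2.39% of all shared regions) and 3 fell (1.89%), with a median log2 change of 0.16 against 0.03. Itga9 supplied 11 of the 20. Without it 135 regions gave 9 higher (6.67%) and 2 lower, with a median of 0.12. Leaving out 1 library gave 6 (without untreated replicate 1), 11 (without either DLL4 replicate) and 14 (without untreated replicate 2) higher regions, and quantile normalisation 14.

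Among the other members, a region inside Timd4, whose product TIM4 binds phosphatidylserine on dying cells, had 55.2 and 80.7 with DLL4 and 29.5 and 23.6 without (log2 change 1.27 ± 0.23, limma adjusted p = 4.32e-05). Clec1b, which encodes CLEC-2, had 98.1 and 95.8 against 59.6 and 34.2 (1.05 ± 0.19, limma adjusted p = 3.08e-05). Nr1h3, the gene of the nuclear receptor LXR alpha, had 56 and 52.7 against 25.2 and 24.5 at internal starts of the gene (1.06 ± 0.24, limma adjusted p = 0.00252). The groups did not overlap at any of these, and the Clec1b call alone of the 3 was kept under every left-out library.

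Spic, an ETS factor of red pulp and liver macrophages, had 21.1 and 19.2 with DLL4 and 8.6 and 7.88 without at one region (1.16, limma adjusted p = 0.0291) and 40.7 and 63.6 against 27 and 30.7 at its promoter (0.77, limma adjusted p = 0.0455), both calls lost after quantile normalisation. Stab2, a scavenger receptor, Pcolce2, Smad6 and Slc40a1, the iron exporter ferroportin, each had 1 region higher (0.60 to 0.93), and of these 4 the call at Pcolce2 was kept after quantile normalisation. In the other direction, Clec4f, the Kupffer cell lectin, had 48 and 49.9 against 77.4 and 73.6 (log2 change -0.65, limma adjusted p = 0.0307), and Id3, a helix-loop-helix inhibitor, fell by 0.56; neither call was kept after quantile normalisation. Of the 269 regions at these genes 14 had a peak only with DLL4 (against 2.14% of all regions), among them 4 at Itga9 and 3 at Paqr9, and 4 only without it (against 2.03%), of which 2 were at Folr2, a folate receptor of resident macrophages.

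LXR target genes, which handle cholesterol and lipids, had 6 higher (4.92%, against 2.39% of all shared regions) and 2 lower (1.64%, against 1.52%) of 122 shared regions, with a median of 0.09. Abcg1, a cholesterol exporter, had 3 of the 6: the strongest, 9.73 kb outside the gene, had 30.5 and 28.7 with DLL4 and 8.6 and 8.76 without (1.63 ± 0.33, limma adjusted p = 3.18e-04), and the others rose by 1.43 and 0.94. Nr1h3 is on this list too. Lpcat3, a phospholipid enzyme, rose by 0.52, Arl4c had a region each way (0.56 and -1.17) and Pltp, the phospholipid transfer protein, fell by 0.73. None of the list's calls was kept without untreated replicate 1.

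TGF-beta and BMP genes had 8 higher (5.10%, against 2.39% of all shared regions) and 5 lower (3.18%, against 1.52%) of 157 shared regions, with a median of 0.03. The 5 losses were at Ltbp1 (-1.64), which holds latent TGF-beta, the inhibitory Smad7 (-1.15), the corepressor Ski (-0.71), Id3 and Smad3 (-0.51). The gains were smaller, 0.31 to 0.63, at the receptors Bmpr2, Tgfbr1 and Tgfbr2, at Tgfb1, Smad2, Smad4, Smad6 and Skil, and none of the 8 was kept after quantile normalisation. No call of the list was kept without untreated replicate 1.

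**Figure D4:**
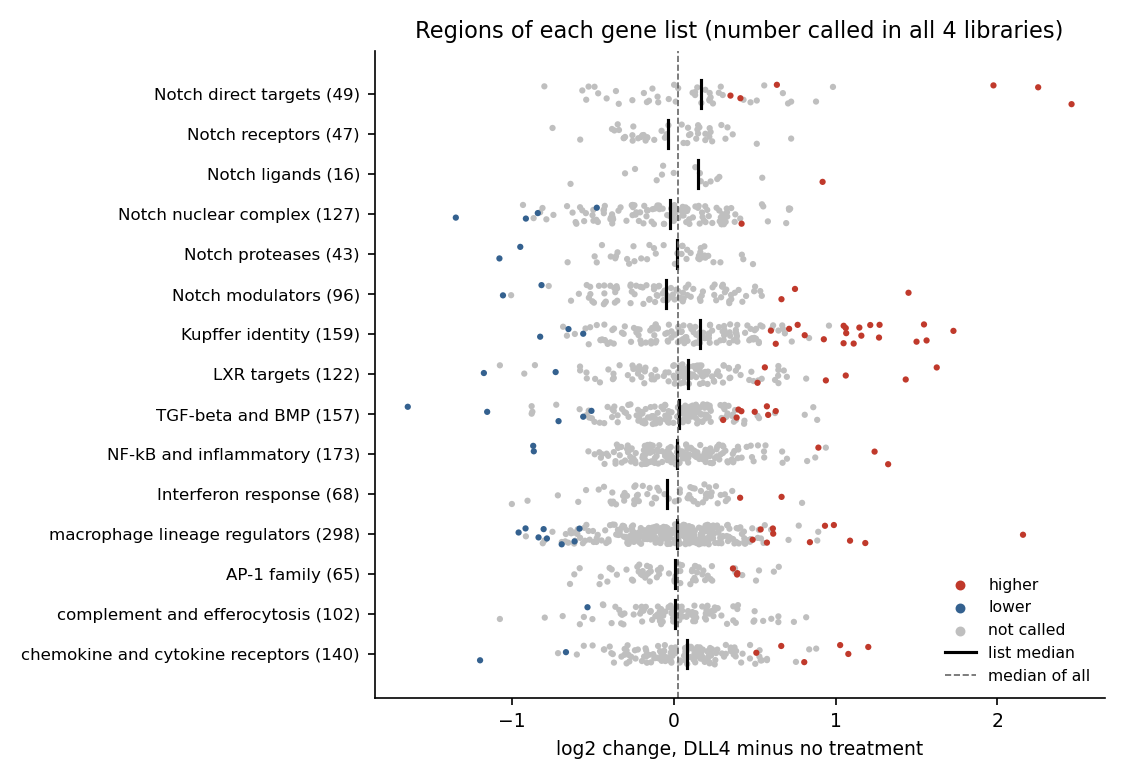
Log2 change (DLL4 minus no treatment, horizontal axis) of each shared region at the genes of 15 lists, with the number of shared regions in brackets; red is called higher, blue called lower and grey not called, black bars are list medians and the dashed line is the median of all 72333 shared regions. The Kupffer identity list has 20 red points and the Notch direct target list 6, of which 3 lie near 2 or above.

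Among macrophage lineage regulators, 11 of 298 shared regions rose (3.69%, against 2.39% of all shared regions) and 8 fell (2.68%, against 1.52%), with a median of 0.02. Beside Runx3 and Runx1, the nuclear receptor gene Rxra had 2 gains, the larger with 161.3 and 125.9 against 66.3 and 78.8 (log2 change 0.93, limma adjusted p = 6.07e-06), and Irf8, a factor of monocytes and dendritic cells, rose by 0.58 and 0.61 at 2 regions. Losses were at Mitf (-0.96), Klf6 (-0.78 and -0.61) and Klf2 (-0.58). The list had 6 higher and 6 lower calls after quantile normalisation, without those at Irf8 and Mitf, and 2 higher and 0 lower without untreated replicate 1.

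Inflammatory genes under NF-kB control had 3 higher and 2 lower of 173 shared regions, with a median of 0.02. Both shares, 1.73% and 1.16%, were under those of all shared regions, 2.39% and 1.52%. Nfkb1, a subunit of NF-kB, had 66.9 and 83.5 with DLL4 and 35.6 and 22.8 without inside the gene (1.33 ± 0.22, limma adjusted p = 5.17e-06), and kept its call under every left-out library. A region 23.9 kb from Il12a, a subunit of interleukin-12, rose by 1.24 and one at Ccl4, a chemokine, by 0.89, the latter not called after quantile normalisation. The 2 losses lay 22.8 and 22.3 kb from Nfkbia, an inhibitor of NF-kB, with 42.9 and 60.9 against 92.1 and 91.1 and 39.2 and 41.7 against 78.6 and 67.4 (log2 changes -0.86 and -0.87).

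Interferon response genes gave 2 gains of 68 shared regions (2.94%, against 2.39% of all shared regions), 1 of them at Irf1 (0.67). AP-1 genes gave 3 of 65 (4.62%), at Fosb, Jun and Jund (0.37 to 0.39), none kept after quantile normalisation. Of their 99 regions, 3 at Fos had a peak only with DLL4 (against 2.14% of all regions) and 2, at Fosb and Fosl2, only without it (against 2.03%). Complement and efferocytosis genes had 1 call of 102 (0.98% lower, against 1.52%), at Lrp1 (-0.53). Chemokine and cytokine receptors had 6 higher (4.29%) and 2 lower (1.43%) of 140. Among them Cx3cr1, the fractalkine receptor, had 32.7 and 30.1 with DLL4 and 75.6 and 67.4 without (log2 change -1.20 ± 0.22, limma adjusted p = 4.20e-05), a call not kept without untreated replicate 1. Regions at Csf3r, Ifngr1 and Cxcr4 rose by 1.03 to 1.20, and of these 3 the call at Csf3r was kept after quantile normalisation.

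The cells carried open chromatin at macrophage genes in both groups. All 12 macrophage markers had a shared region within 10 kb, with a summed signal of 7326 and 6897 with DLL4 and 7415 and 6591 without. Of 87 shared regions at these genes 1 rose (1.15%, against 2.39% of all shared regions), near Mrc1, and 2 fell (2.30%, against 1.52%), near Lyz2 and near Itgam, the gene of CD11b, where the signal 11.6 kb outside the gene was 74.9 and 63.6 against 159.1 and 155 (-1.21 ± 0.15, limma adjusted p = 4.19e-10), a call kept under every left-out library. Monocyte markers had 0 higher and 2 lower (4.35%) of 46, both at S100a4 (-1.09 and -0.59), with summed signals of 1588 and 1507 against 1869 and 1664.

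Some defining markers of lymphocytes and stromal cells had no shared region within 10 kb: Cd3e, Cd3g, Cd8a, Ncr1, Nkg7 and Gzmb of T and NK cells, Cd79a, Cd79b and Vpreb1 of B cells, and Col3a1, Dcn, Lum and Thy1 of stromal cells. The remaining members had one: 5 of 11 T and NK, 5 of 8 B and 4 of 8 stromal cell genes. Cd3d was among the strong ones, with 184.6 and 165.5 with DLL4 and 171.4 and 144.5 without. Most neutrophil (11 of 12), progenitor (8 of 8) and endothelial (6 of 7) markers had one too. Open chromatin at a marker gene is thus not limited here to macrophage genes. Osteoclast markers, at 8 of 8 genes with a shared region, gave 4 higher (10.8%, against 2.39% of all shared regions) and 1 lower (2.70%, against 1.52%) of 37 shared regions, led by Acp5, the tartrate-resistant phosphatase, with 94.5 and 65 against 30.1 and 30.7 (log2 change 1.30 ± 0.21, limma adjusted p = 3.87e-06), then Ctsk (0.83 and -0.50), Mmp9 (0.76) and Ocstamp (0.74); none of the 5 was called without untreated replicate 1. Their summed signals were 2350 and 2404 with DLL4 and 2348 and 2029 without. Dendritic cell markers, of which 9 of 10 had a shared region within 10 kb and Cd209a had none, gave 3 higher (3.70%) and 1 lower (1.23%) of 81, with summed signals of 3563 and 3575 against 3568 and 3168. The part of other cell types in the changes above was not tested.

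Regions with a peak in 1 group only were mostly weak. DLL4-only regions numbered 2587, with a median signal of 10.5, and regions found only without treatment 2453, with a median of 10.9. The numbers rose to 9868 DLL4-only regions without untreated replicate 1 and to 11955 untreated-only regions without untreated replicate 2. A peak of the other group lay within 1 kb of 31.5% and 33.3% of them, and of 43 and 35 of the 50 strongest. The strongest by signal were of that kind. Abcg3, a transporter gene, had 162.1 and 189.5 with DLL4, ahead of Tbc1d10b, H3f3a, Psd2 and Gm33851, and Cnga4, a channel gene, had 597.1 and 546.5 without treatment, ahead of Cul3, Sp4, Inpp5a and Setd5, all 10 with a neighbouring peak of the other group.

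Away from such neighbours 126 DLL4-only and 188 untreated-only regions had a signal of at least 20. The strongest of them, named after their values were seen, were at H2-DMa, which loads class II molecules (82.8 and 75.2 with DLL4), and at Myo1c, Zfp444, Prkab2 and Gpsm3, and, without treatment, at Mgat1, a glycosyltransferase (110.6 and 118.2), Zc3h7a, Emp3, Mlec and Gm52009. By number, Apol7c, an apolipoprotein L gene of the mouse, led with 5 DLL4-only regions of 10.2 to 44.5 and no shared region. Next, with 4 each, were Rbm47 (of 50 regions), Itga9 (of 42), Filip1l (of 37) and Klf7 (of 20), against 2.14% of all regions. Filip1l also had 4 shared regions higher, the strongest with 469.5 and 470 against 240.2 and 314.4 (log2 change 0.74, limma adjusted p = 8.39e-08). Without treatment Lpp led with 5 of 95 regions, and Disc1 (of 31), Foxp1 (of 103) and Myo3b (of 16) had 4 each. Over all regions the share was 2.03%. Lpp and Foxp1 also had 3 DLL4-only regions each.

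Gains and losses differed in where they lay. A window from 250 bases before to 50 after an annotated start was touched by 13.8% of shared regions, by 20.4% of those that rose and by 3.90% of those that fell. The share among gains was 26.7% without centring, and it was under that of all shared regions after quantile normalisation (8.28%) and on the score scale, the log2 of the authors' peak score (5.05%). Among losses it was 3.12% to 4.39% in the same 3 settings. Fewer promoters among losses than among all shared regions was thus seen in each of these settings, and more promoters among gains was not.

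Promoter windows under called regions were searched on both strands for 5 motifs. The RBPJ core, GTGGGAA, was in 6.52% of 445 windows under regions that rose, against 6.38% of all 32851 windows and 5.73% of the 11685 under any shared region, and in 5 of the 47 windows under regions that fell (10.6%). The AP-1 motif, TGANTCA, was in 13 of the 47 windows under regions that fell (27.7%), against 4.91% under any shared region and 4.49% under gains. RUNX (TGTGGTT) was in 14.9% and PU.1 (GAGGAAGT) in 10.6% of windows under losses, against 3.76% and 3.88% under any shared region. The E-box CACGTG was in 14.4% of windows under gains and 10.96% under any shared region. Windows of 1 gene overlap and the 47 are few, so these shares are a description.

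The changed regions were compared with the uncultured cells. In the Kupffer cells given PBS 64.3% ± 1.84 (SD, n = 2) of all shared regions held a peak, 80.6% ± 0.41 of those that rose with DLL4 and 41.4% ± 1.03 of those that fell. In blood monocytes the shares were 70.6%, 69.2% and 67.2%. Strong regions are found in more libraries, so the shares were also taken by signal: at a mean BMDM signal of 20 to 50, Kupffer cells held 59.6% of all shared regions, 63.5% of gains and 25.5% of losses, and blood monocytes 67.4%, 48.2% and 57.8%. At 50 to 100 the shares were 83.3%, 86.5% and 55.1% in Kupffer cells and 84.7%, 72.9% and 79.2% in monocytes. Within a band, gains were therefore under the overall share in monocytes and near it in Kupffer cells, and losses under it in both but further in Kupffer cells. In the liver macrophages at 48 h the shares at 20 to 50 were 78.7%, 80.2% and 50.0%. At 24 h they were 68.2%, 61.3% and 47.5%, with gains under the overall share, as in monocytes. No test was run on these shares, since regions are not replicates.

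**Figure D5:**
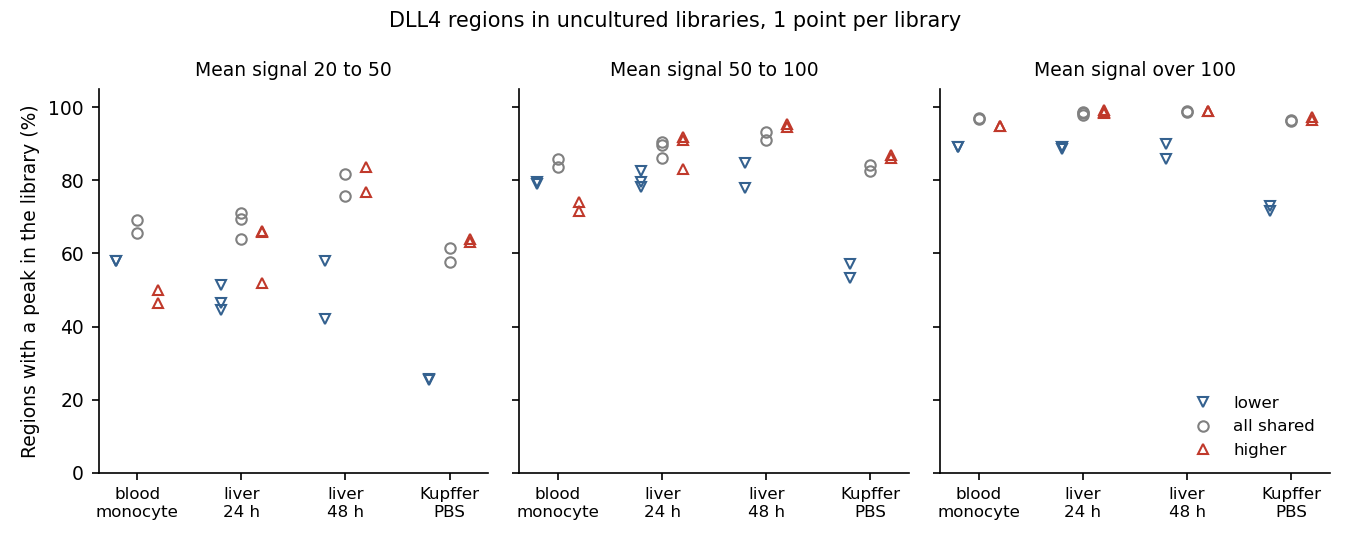
Percent of regions that held a peak (vertical axis) in each library of blood monocytes, liver macrophages 24 and 48 h after diphtheria toxin and Kupffer cells after PBS, 1 point per library, in 3 bands of mean BMDM signal (normalised tag count per 10000000 tags). Blue triangles are regions lower with DLL4, red triangles regions higher and grey circles all shared regions; in Kupffer cells at 20 to 50 the blue points lie near 25% and the others near 60%.

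Where a peak was present, the median signal in the liver groups was above that in blood at gains and under it at losses. At gains with a peak in both, the median log2 difference from blood monocytes was 0.39 in Kupffer cells (1000 regions), 0.32 in liver macrophages at 48 h and 0.35 at 24 h. At losses it was -0.44 (351 regions), -0.53 and -0.45, and over all shared regions 0.00, 0.00 and 0.08. The 3 differences share the blood samples and are not independent.

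Single regions varied in this. The Hes1 region nearest to the gene had 53.7 to 64.8 in blood monocytes, 118.6 to 222.8 in liver macrophages at 24 h, 161.2 to 206.8 at 48 h and 117.5 to 139 in Kupffer cells, so that every liver library was above both blood libraries. At Spic (chr10:88681020-88681253) blood monocytes had no peak, and the signal was 70.2 to 144.4 at 24 h, 179.5 to 205.4 at 48 h and 113.7 to 117 in Kupffer cells. The Tspan15 region had a peak at 48 h (35.2 to 38.3) and in Kupffer cells (80.6 to 126.5) and none in blood or at 24 h. Cx3cr1 went from 87.9 to 119.8 in blood to 16.1 to 32.6 in Kupffer cells.

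Other regions that rose with DLL4 did not follow that order. The Runx3 internal start had 77.3 to 95.9 in blood monocytes, 57.9 to 59 at 24 h, 25.3 to 30.1 at 48 h and no peak in Kupffer cells. The Nr1h3 region at internal starts had no peak in blood monocytes, in liver macrophages at either time or in the Kupffer cells given PBS. It does not cover the gene's first start. The Timd4 region had a peak in the Kupffer cells alone among these groups, with 25.9 to 34.1.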

How the data were processed

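ATAC-seq libraries of 2 DLL4-treated and 2 untreated BMDM samples were compared, grouped by their titles. Per the submitters' processing notes the genome was mm10, and Bowtie2 and HOMER were used; how each was set is known only from the file headers. Per the file headers, the authors called peaks in each library separately, 200 bp wide and at least 200 bp apart, at a false discovery rate of 0.001, with 4-fold more tags than the surrounding 10 kb and a Poisson p of 0.0001. The deposited normalised tag count is a signal, the tags in a peak scaled by the authors to 10000000 tags per library. The deposited findPeaks score counts tags with 1 allowed per position and is not scaled to depth, per the file headers; the score scale was used as an alternative only.

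Peaks on the 19 autosomes and X that overlapped by 1 base were merged, and the strongest peak gave a library's value. Signals became log2(signal + 1), so that fold changes of weak regions are understated, and each library was centred on its median over shared regions. The test was limma 3.58.1 in R 4.3.3 (moderated, with a trend of variance on signal, two-sided), Benjamini-Hochberg adjusted over 72333 regions, called at 0.05; it was tested on simulated data. Requiring a peak in all 4 libraries leaves out regions that open or close fully. Regions with a peak in both libraries of 1 group and in none of the other are given as group-only. Many of these are weak or lie beside a peak of the other group, so they need not open or close fully. Other patterns of peaks fall in neither class, such as the 7281 regions without a peak in untreated replicate 2 alone. Gene bodies, promoter windows and names come from RefSeq tables of GRCm38.p6; exons and introns were not used here.

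The genes named follow a rule: per direction the 10 largest called changes with 1 region per gene, the 5 strongest group-only regions and the 5 genes with most called or group-only regions, every Notch gene with a region, and up to 3 called genes and 2 with group-only regions per other list. Further called members of the lists, marker genes and regions away from neighbours were named after their values were seen. The comparison, the 25 gene lists and the rule were chosen with earlier results of these data known. Alternatives changed the pseudocount, centring, signal minimum, overlap, peak value, variance trend and block, and left out each library. A few genes that the rule names are not reported here.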

Additional observations from a re-analysis of the deposited data

How the results depend on the processing

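Direction was checked at 115 called regions: the 20 largest changes and the called regions of the gene lists other than the markers. None of them changed direction under any alternative in which it was tested. For all 2831 called regions, reversals were only counted per alternative. Quantile normalisation reversed 1, summed peaks 2 and the score scale 1, and no other alternative reversed any. The reversed regions are not identified here. Regions called higher (1728) numbered 664 after quantile normalisation, 931 on the score scale, 0 without the variance trend and 133 to 945 with 1 library left out. Regions called lower (1103) numbered 633 without centring, 570 after quantile normalisation, 609 on the score scale, 0 without the variance trend and 15 to 562 with 1 library left out. A pseudocount of 10, a mean signal of at least 20, an overlap of 50% and summed peaks kept both counts within 1.5 times. The 6 calls higher at Notch direct targets became 3 after quantile normalisation, 3 on the score scale, 0 without the trend and 3 to 5 with 1 library left out. The 20 at Kupffer identity genes became 9 without Itga9, 0 without the trend and 6 to 14 with 1 library left out. DLL4-only regions (2587) numbered 1275 from the 50% of peaks with the higher scores and 3777 to 9868 with 1 library left out, and untreated-only regions (2453) 1249, 1635 with no peak of the other group within 1 kb, and 4772 to 11955. With those peaks the share of regions held in Kupffer cells was 38.8% of all shared, 63.7% of gains and 20.6% of losses, and in blood monocytes 43.2%, 49.1% and 44.5%.

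Of the 115 called regions named at genes, 20 kept the call without untreated replicate 1, the deepest untreated library, and 70 after quantile normalisation. Same-numbered replicates did not deviate together (r = -0.04 between the groups, across regions). That value cannot show whether they share an animal or culture, and the main fit treated them as unpaired. With a replicate block 1422 regions were higher and 960 lower, within 1.5 times. The score scale, the list without Itga9, the bands of signal and the promoter shares under other scales were chosen after seeing the data. The count tests planned on recovered tags were not run. The median signals of group-only regions, 10.5 and 10.9, lie near the smallest deposited signals of the 4 libraries, 4.30 to 5.25, so at that level a missing peak can be a matter of depth.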
